A study of Homo sapiens with 6 samples.

Results

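The thioredoxin and glutaredoxin system was followed here as 10 genes chosen by name: TXN, TXN2, TXNRD1, TXNRD2, TXNRD3, TXNIP, SRXN1, GLRX, GLRX2 and GLRX5. Each symbol matched 1 of the 65988 Ensembl gene identifiers of the count tables, and all 10 passed the filter on low counts that left 16105 genes for testing. The counts come from U87MG, an established human glioblastoma cell line, in the wild-type state. Cells of 3 control libraries received vehicle and cells of 3 further libraries received 2 µM RSL3, a small molecule that blocks the lipid peroxidase GPX4. The sample labels give no time of treatment, and a figure legend of the study gives 24 h. The control libraries differ from the treated ones, as far as the labels say, in RSL3 alone, and nothing in the labels says whether the libraries of a group came from separate cultures, so p-values measure the spread between these libraries.

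Thioredoxins are small proteins that reduce disulfides in other proteins, and thioredoxin reductases, which carry a selenocysteine near their end, recharge them with electrons from NADPH. TXN, TXNRD1 and TXNIP act mainly in the cytosol and nucleus, and TXN2 and TXNRD2 in mitochondria. Glutaredoxins do related work with electrons from glutathione, or pass on iron-sulfur clusters. Peroxiredoxins, which remove peroxides, depend on thioredoxin for their reduction, and sulfiredoxin (SRXN1) repairs those that have been over-oxidised. Several of these genes are textbook targets of the transcription factor NRF2, which binds antioxidant response elements (AREs) under oxidative stress.

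Total counts per library lay between 27813462 and 43306335. The first principal component separated the treated from the control libraries and held 39.1% of their variance, and no library stood apart from its group on it. Mitochondrially encoded genes took 0.918% to 1.26% of the counts in the control libraries and 0.840% to 0.912% in the treated ones, and the part of this difference in the results below was not tested. Of the markers of the line, VIM and CD44 were abundant, with 68318 and 24702 normalised counts on average in control cells, and both fell with RSL3, by 0.29 and 0.39 on the log2 scale (edgeR adjusted p = 2.2e-08 and 1.2e-08). The markers NES, GFAP and OLIG2 were scarcer, at 153, 104.5 and 295 normalised counts in control cells, with log2 fold changes of 0.25, 0.40 and 0.13 that did not pass the test (edgeR adjusted p = 0.203, 0.0726 and 0.347). Treated and control libraries did not overlap in GFAP and OLIG2. SOX2 had at most 2 counts in any library, and CDKN2A, a gene that U87MG is known to lack, had 0 in all 6. Markers of other cell types were at or near 0, with at most 1 count of PTPRC, 8 of PECAM1, 10 of RBFOX3 and 23 of EPCAM. Normalised counts are the deposited counts scaled to the mean library size after adjustment by edgeR's TMM method. In such bulk RNA, fewer cells with a transcript and less of it per cell cannot be told apart.

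SRXN1, TXNRD1 and TXN were upregulated in RSL3-treated cells, by 1.91-fold, 1.46-fold and 1.24-fold, and TXN2 was downregulated, to 0.897 of its control level. The remaining 6 genes did not pass the test. A gene was called at an adjusted p under 0.05 by the quasi-likelihood F test of edgeR, adjusted after Benjamini and Hochberg over all 16105 genes. Thus 4 of 10 genes were called, 3 higher and 1 lower, where 25.6% of all genes tested were called, 12.9% higher and 12.7% lower. The groups did not overlap in 7 of the 10 genes, and in 38.6% of all genes tested. The median log2 fold change was -0.01 over the 10 genes, with 5 above 0, and 0.00 over all genes tested (-0.004). Together the 10 genes took 0.236% to 0.248% of all counts in the control libraries and 0.313% to 0.333% in the treated libraries. Most of these counts were of TXNRD1, whose mean went from 52343 to 76530 normalised counts.

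**Figure D1:**
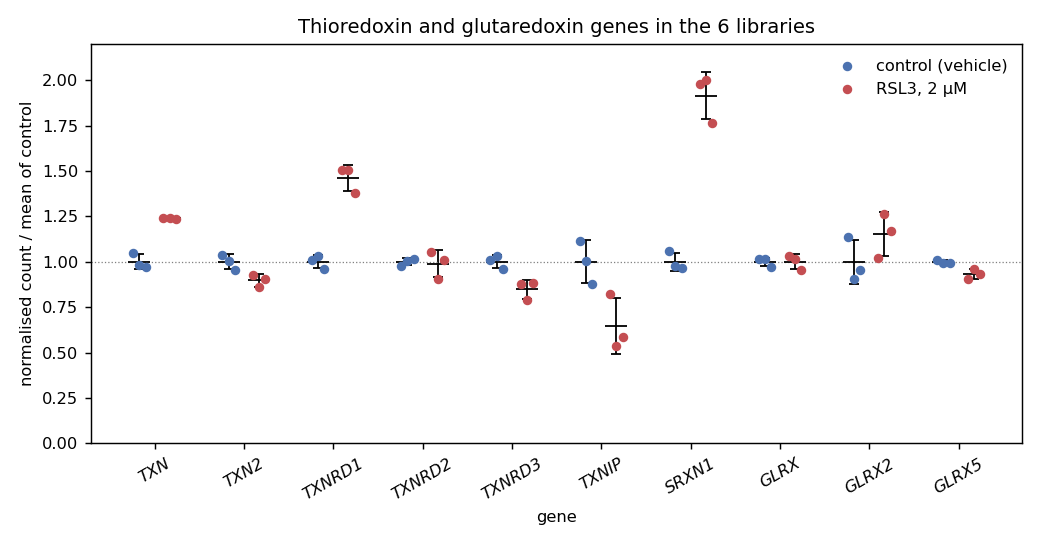
Normalised counts of each gene (x axis) in the 3 control and 3 RSL3-treated libraries, divided by the mean of the control libraries (y axis, no unit). Points are libraries, the horizontal mark is the group mean and the bars are 1 SD; the treated points of SRXN1, TXNRD1 and TXN lie above all their control points, and those of TXN2, TXNRD3, TXNIP and GLRX5 below.

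Of the reductases, TXNRD1 was by far the most abundant and the one that rose. TXNRD1 (ENSG00000198431) encodes the cytosolic thioredoxin reductase and lies on chromosome 12 of GRCh38, from 104215779 to 104350307 on the plus strand. Its normalised count was 52921, 53892 and 50216 in control replicates 1, 2 and 3 and 78788, 78685 and 72118 in the treated replicates. Every treated library was above every control library, and the lowest treated value, in replicate 3, was still well above the highest control value. The means were 52343 ± 1905 (SD, n = 3) and 76530 ± 3821 (SD, n = 3), and the log2 fold change was 0.55 (standard error 0.03, 95% interval 0.48 to 0.62, edgeR adjusted p = 1.41e-10). By p-value TXNRD1 was number 27 of the 16105 genes tested, and by size it was number 312 of the genes called higher.

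TXNRD2 (ENSG00000184470, chromosome 22, 19875517 to 19941820, minus strand) encodes the mitochondrial reductase. Control libraries held 733, 753 and 763 normalised counts and treated libraries 790, 680 and 757. The groups overlapped, and the log2 fold change was -0.01, with a 95% interval of -0.16 to 0.13 (edgeR adjusted p = 0.914). This interval does not reach the change measured for TXNRD1.

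TXNRD3 (ENSG00000197763, chromosome 3, 126571779 to 126655124, minus strand) encodes a reductase with an added glutaredoxin domain that is best known from the testis. It had 307, 314 and 292 normalised counts in control libraries and 267, 240 and 269 in treated libraries. The treated libraries were all lower, and the log2 fold change of -0.24 (standard error 0.10, 95% interval -0.44 to -0.03) had an unadjusted p of 0.0291 in edgeR and did not pass the adjustment (adjusted p = 0.0928).

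The thioredoxins themselves went in opposite directions. TXN (ENSG00000136810) lies on the minus strand of chromosome 9, from 110243810 to 110256507, and encodes the cytosolic thioredoxin. Its normalised count was 17378, 16345 and 16118 in the control libraries and 20645, 20639 and 20502 in the treated libraries. The treated values lay close together and above all control values. The mean went from 16614 ± 671 (SD, n = 3) to 20595 ± 80.7 (SD, n = 3). On the log2 scale this was 0.31, with a 95% interval of 0.25 to 0.37 (edgeR adjusted p = 1.32e-07).

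TXN2 (ENSG00000100348, chromosome 22, 36467046 to 36481640, minus strand) encodes the mitochondrial thioredoxin. It had 2640, 2557 and 2434 normalised counts in control libraries and 2362, 2190 and 2299 in treated libraries. The groups did not overlap, but the lowest control and the highest treated value were close. The log2 fold change was -0.16, with a 95% interval of -0.24 to -0.07 (edgeR adjusted p = 0.00782). This call was lost without control replicate 1 (adjusted p = 0.0537), without RSL3 replicate 2 (adjusted p = 0.0662) and in DESeq2 with 2 surrogate variables (adjusted p = 0.085). The other 3 calls held in all of these fits.

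TXNIP (ENSG00000265972, chromosome 1, 145992435 to 145996579, minus strand) encodes an arrestin-like protein that binds thioredoxin and holds it inactive, and its transcription is known to follow glucose through the factor MondoA and its partner MLX. It was the scarcest of the 10 transcripts, with raw counts of 85, 49 and 57 in the control libraries and 43, 31 and 35 in the treated ones. Normalised, these were 66.8, 60.3 and 52.7 against 49.5, 32.2 and 34.96. All treated libraries were lower than all control libraries, with the first treated replicate next to the lowest control. The log2 fold change of -0.63 was the lowest of the 10, but its 95% interval ran from -1.15 to -0.12 and it did not pass the adjustment (unadjusted p = 0.0182, edgeR adjusted p = 0.0652). Without RSL3 replicate 1 it did (log2 fold change -0.84, adjusted p = 0.0385). The coefficient of variation was 11.8% among control and 23.8% among treated libraries.

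The stretch before the TXNIP start site is shown because it carries the letters through which MondoA and MLX are known to act. It covers the 120 bases just before the start, chr1:145996580-145996699 of GRCh38 on the minus strand, and comes from RefSeq. Matches to CACGNG on either strand, the unit that is repeated in a carbohydrate response element, are in capitals.
TXNIP promoter: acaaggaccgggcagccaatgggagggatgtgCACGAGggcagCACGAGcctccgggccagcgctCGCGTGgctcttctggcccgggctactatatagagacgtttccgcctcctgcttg
The pair of CACGAG runs begins 88 and 77 bases before the start. Such a match stands in 30.5% of the 35116 RefSeq promoter windows of 300 bases, so a single one is common. ARRDC4, the nearest relative of TXNIP in this control by glucose, had a log2 fold change of 0.20 (edgeR adjusted p = 0.275). Its groups overlapped. With all libraries neither ARRDC4 nor TXNIP passed the test, so their directions cannot be set against each other. A shared control by glucose was not tested.

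SRXN1 had the largest change of the 10 genes. It lies on the minus strand of chromosome 20 (ENSG00000271303, 646615 to 653200). Its normalised count was 1043, 962 and 952 in the control libraries and 1954, 1972 and 1742 in the treated libraries. No treated library came near the control range. The mean rose from 986 ± 49.8 (SD, n = 3) to 1889 ± 128 (SD, n = 3), a log2 fold change of 0.93 (standard error 0.05, 95% interval 0.82 to 1.05, edgeR adjusted p = 1.04e-10). It was number 24 of all genes by p-value and number 124 by size among those called higher.

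The SRXN1 counts may rest on a small part of the gene, which depends on the annotation the authors used. In the GENCODE annotation 90.7% of its exon bases are also exons of ENSG00000270299, a longer gene on the same strand, and a read there fits both. That gene is among the identifiers of the files and had at most 2 counts in any library. If the authors' annotation has the same exons, the SRXN1 counts come from its other 236 exon bases. In that case the change between groups was measured on those bases, and the level of SRXN1 is understated.

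Runs from the promoters of the upregulated genes are shown with the match to an ARE in capitals, read 5′ to 3′ on the strand of the gene. The search used TGACNNNGC, the core of the ARE, and TGANTCAGC, a form of it that overlaps the AP-1 site TGANTCA, on both strands of the window from 2000 bases before to 50 bases after each RefSeq start on GRCh38.
SRXN1, 272 bases before the start, chr20:653456-653480, minus strand: actcacccTGAGTCAGCccgcccgg
TXNRD1, 99 bases before the start, chr12:104215672-104215696, plus strand: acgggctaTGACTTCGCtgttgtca
TXN, 581 bases before the start, chr9:110257072-110257096, minus strand: actaaaccGCTGTGTCAagctggag
The TXN match is on the strand opposite to the gene. TXNRD1 held 3 further matches to TGACNNNGC, which are not shown: 1502 and 8 bases before the same start, and 102 bases before a second start. The runs around the last pair overlap annotated exons of TXNRD1. TGANTCAGC stood in 7.02% of all 35116 windows of this length and, of the 9 genes with an entry, in SRXN1 alone. That share is per window, and these genes have 15 windows between them. The motifs were chosen after the promoters had been read. Whether the match in SRXN1 is more than ordinary was not tested. The core TGACNNNGC stood in 53.0% of all windows, so its presence near a start is ordinary. It was also found before GLRX, GLRX5 and TXNRD2, which did not pass the test, and not before SRXN1. TXN2 had no entry. A match says only that the letters are there, and no binding was measured.

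The glutaredoxins did not pass the test. GLRX (ENSG00000173221, chromosome 5, 95751319 to 95822726, minus strand) encodes the cytosolic glutaredoxin, which removes glutathione from proteins. It had 6594, 6596 and 6338 normalised counts in control libraries and 6729, 6596 and 6231 in treated libraries. The groups overlapped, and the log2 fold change was 0.00 (0.002, standard error 0.03), with a 95% interval of -0.07 to 0.07 (edgeR adjusted p = 0.979). The interval excludes a change as large as that of TXN.

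GLRX2 (ENSG00000023572, chromosome 1, 193090866 to 193106114, minus strand) encodes a glutaredoxin of mitochondria and nucleus that can hold an iron-sulfur cluster. Its control replicates were the most spread of the 10 genes relative to their mean (coefficient of variation 12.3%), at 994, 791 and 831 normalised counts, and stood at 891, 1100 and 1021 in the treated libraries. The first control library lay above the first treated one, so the groups overlapped. The log2 fold change was 0.20 (95% interval 0.03 to 0.36, edgeR adjusted p = 0.0763). It passed without control replicate 1 (log2 fold change 0.31, adjusted p = 0.0088), without RSL3 replicate 1 (0.27, adjusted p = 0.0196) and without the filter on low counts (adjusted p = 0.0166). RO60, on the other strand, overlaps 7.75% of its exon bases, and the counting ignored strand.

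GLRX5 (ENSG00000182512, chromosome 14, 95533503 to 95544724, plus strand) encodes the mitochondrial glutaredoxin that passes on iron-sulfur clusters. Its normalised counts were 1886, 1852 and 1854 in control libraries and 1688, 1795 and 1741 in treated libraries. The treated libraries were all slightly lower. The log2 fold change of -0.10 (95% interval -0.18 to -0.01) had an unadjusted p of 0.0292 and an edgeR adjusted p of 0.0932. SNHG10 and SCARNA13, on the other strand, cover 12.6% of its exon bases.

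**Figure D2:**
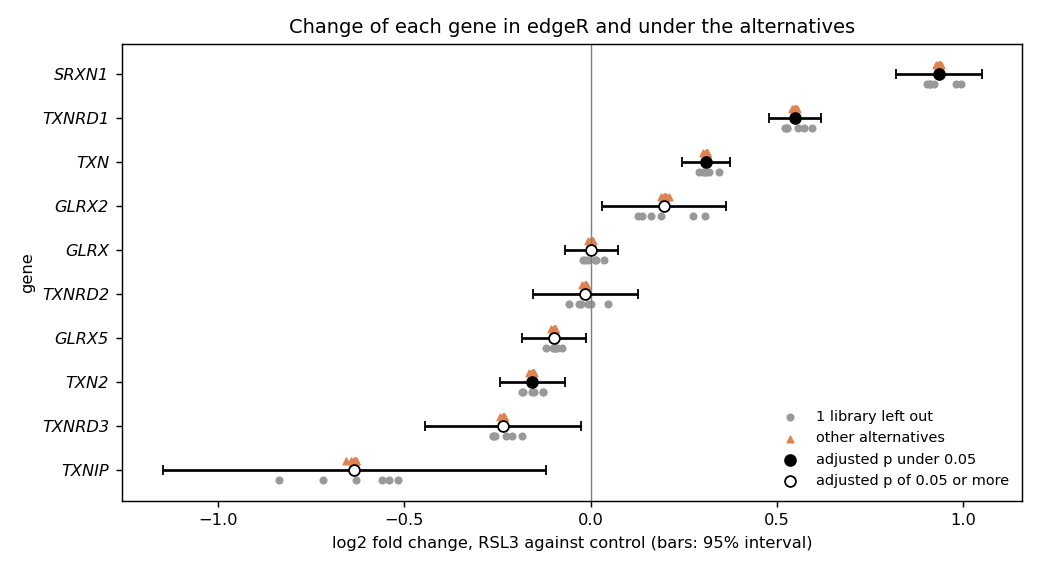
Log2 fold change of each gene between RSL3-treated and control cells (x axis, genes on the y axis). Large circles are the edgeR estimate with its 95% interval, filled at an adjusted p under 0.05; small grey points leave out 1 library each and orange triangles are the other settings. SRXN1, TXNRD1 and TXN stay far to the right of 0 throughout, and the TXNIP interval, from -1.15 to -0.12, is the widest.

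Levels can be compared between genes per kilobase of exon. In control cells the order was TXN with 16449 ± 665 (SD, n = 3) normalised counts per kilobase, TXNRD1 with 7801 ± 284, TXN2 with 1542 ± 62.6, GLRX with 1045 ± 23.9, GLRX5 with 781 ± 7.97 and SRXN1 with 390.0 ± 19.7. GLRX2 followed with 140.4 ± 17.3, TXNRD2 with 91.4 ± 1.83, TXNRD3 with 80.5 ± 2.94 and TXNIP with 16.6 ± 1.96 normalised counts per kilobase. No neighbours in this order overlapped over the control libraries. In treated cells SRXN1, at 747 ± 50.6 (SD, n = 3), moved level with GLRX5, at 729 ± 22.4, and these were the only neighbours whose libraries overlapped. The order depends on the length used. Over the longest transcript GLRX stood level with TXN2, at 1911 against 1904 in control cells, and TXNRD2 came before GLRX2. Over the exon bases that no other gene shares in GENCODE, a length that applies only if the authors' annotation has the same exons, SRXN1 was the third most abundant, at 4177 ± 211 (SD, n = 3) normalised counts per kilobase in control cells and 8005 ± 542 in treated cells.

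**Figure D3:**
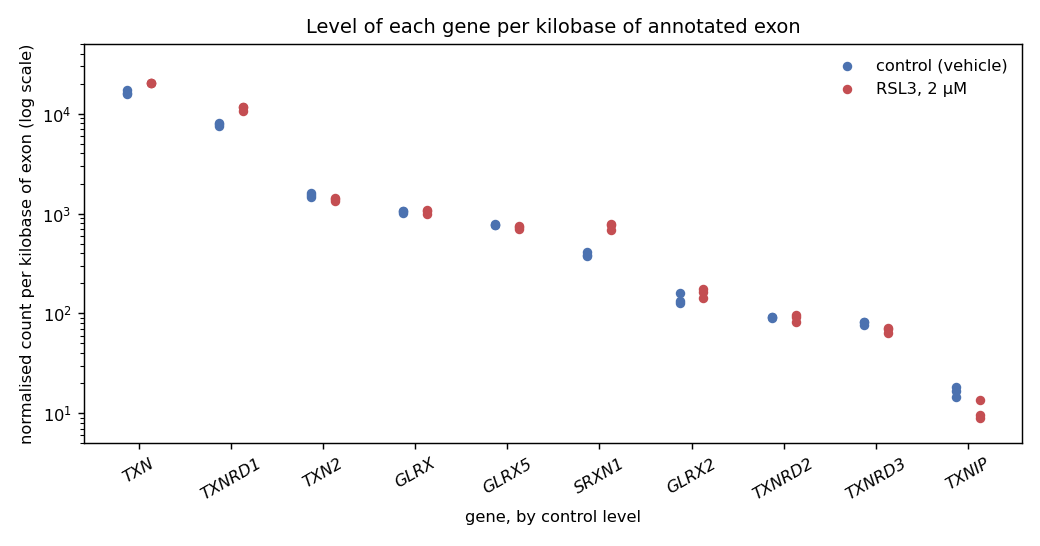
Normalised count per kilobase of annotated exon (y axis, log scale) of the 10 genes (x axis, in the order of the control mean) in each of the 3 control and 3 RSL3-treated libraries, 1 point per library. TXN and TXNRD1 stand above all others, TXNIP is lowest, and SRXN1 moves from below GLRX5 to level with it.

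Ratios of counts within a library do not depend on how libraries are scaled. The TXN count was 6.39 to 6.62 times the TXN2 count in the control libraries and 8.74 to 9.42 times in the treated ones. The TXNRD1 count was 65.8 to 72.1 times that of TXNRD2 in control libraries and 95.2 to 116 times in treated libraries. Relative to TXN, the TXNRD1 count was 3.05 to 3.30 times in control libraries and 3.52 to 3.82 times in treated ones, and the TXNIP count was 0.00330 to 0.00387 against 0.00159 to 0.00242. In each of these ratios and in SRXN1 over PRDX1 the groups did not overlap, and the exact two-sided permutation test gave p = 0.1, the smallest that 3 against 3 libraries allow (0.12 after adjustment over the 6 ratios computed). On the log2 scale the means differed by 0.47 for TXN over TXN2, by 0.56 for TXNRD1 over TXNRD2 and by -0.95 for TXNIP over TXN. GLRX over GLRX2 overlapped between the groups (difference -0.20, exact permutation p = 0.2).

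The peroxiredoxins are served by thioredoxin and sulfiredoxin. Of 6 genes tested, none was called higher in edgeR (PRDX2 came nearest, unadjusted p = 0.0503) and 1 was called lower, and DESeq2 also called none higher. In edgeR 12.9% of all genes tested were called higher and 12.7% lower. PRDX6, which uses glutathione rather than thioredoxin, fell from 4792 ± 150 (SD, n = 3) to 4374 ± 199 (SD, n = 3) normalised counts (log2 fold change -0.13, edgeR adjusted p = 0.0111). PRDX1, a main client of SRXN1, stood at 8367, 8351 and 7919 in control libraries and at 8281, 8341 and 8250 in treated libraries. The groups overlapped, with a log2 fold change of 0.01 and a 95% interval of -0.05 to 0.08 (adjusted p = 0.803). MMACHC, on the other strand, overlaps 29.8% of the exon bases of PRDX1, and the counting ignored strand. The log2 fold changes of PRDX2, PRDX3, PRDX4 and PRDX5 were 0.09, -0.08, 0.00 (-0.001) and -0.07, with adjusted p-values of 0.14, 0.0791, 0.986 and 0.0758. A fit blocked on replicate number called 3 peroxiredoxins lower.

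NADPH feeds the reductases directly and glutathione feeds the glutaredoxins. Of 11 genes tested that supply them, 7 were called higher and 1 lower, with a median log2 fold change of 0.15. Of all genes tested, 12.9% were called higher and 12.7% lower. The largest of these changes were in GCLM and GCLC, the subunits of the enzyme that limits glutathione synthesis, and in GSR, which recycles glutathione, with log2 fold changes of 0.67, 0.45 and 0.55 (edgeR adjusted p = 2.89e-11, 1.1e-08 and 6.46e-10). GSR went from 6857, 6910 and 6238 to 9527, 10076 and 9706 normalised counts, and no treated library overlapped the controls. GSS, which completes glutathione, was the one called lower (log2 fold change -0.12, adjusted p = 0.0428), its groups overlapped, and the call was lost in DESeq2. ME1 was not tested, with at most 1 count in any library.

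Beside these, 12 chosen NRF2 targets from outside the system were all called higher, with a median log2 fold change of 0.41. Their groups did not overlap in any of the 12. Of all genes tested, 12.9% were called higher, and the groups did not overlap in 38.6%. OSGIN1, HMOX1 and AKR1C1 had the smallest p-values, with log2 fold changes of 0.96, 0.95 and 0.78. The log2 fold change of SRXN1 was 0.93 beside these. FTH1, whose product stores iron and whose exons overlap those of BEST1, had the smallest change of the 12, at 0.30. The change of TXN, at 0.31, lay next to that of FTH1 and below the list median. The differences between these genes were not tested. These lists were drawn up with earlier results of the same data known, and they describe the counts rather than test them. The NRF2 list does not hold every target, so its 12 of 12 cannot show how targets in general behaved. Of genes placed in the other lists, GCLM, GCLC and GSR were called higher, and PRDX1, PRDX6 and GSS were not.

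Most genes in the wider lists of thioredoxin relatives and clients did not pass the test, and the lists themselves were not tested. Of 15 other thioredoxin-fold genes tested, 2 were called higher, 4 lower and 9 in neither direction, where 12.9% of all genes tested were called higher and 12.7% lower. Higher were TMX3 and TMX2 (log2 fold change 0.20 in each), membrane proteins of the endoplasmic reticulum. TXNDC16 fell most, by 0.78, from 120, 166 and 155 to 58.7, 107 and 86.9 normalised counts, and TXNDC15 and TMX4 were also lower, with log2 fold changes of -0.17 (-0.168) and -0.165. Not tested were TXNDC2, TXNDC8, NXN, NME8 and NME9. Of 8 clients tested, 1 was called higher, 2 lower and 5 in neither direction. RRM1, the large subunit of ribonucleotide reductase, fell by 0.49 (edgeR adjusted p = 9.67e-07), at 1137, 1071 and 1161 against 804, 801 and 801 normalised counts. MSRB3, a methionine sulfoxide reductase, fell by 0.31, and RRM2B, the p53-inducible small subunit, rose by 0.14.

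Of 7 genes tested for other alpha-arrestins, MondoA, its relative MLXIPL and MLX, 1 was called. For this list and the next, the share over all genes tested was 25.6% called, 12.9% higher and 12.7% lower. ARRDC3 was lower (log2 fold change -0.47, edgeR adjusted p = 0.00266), at 707, 757 and 1061 normalised counts in control libraries and 567, 603 and 653 in treated libraries, with 1 high control library. DESeq2 did not call it. ARRDC5 was not tested. Among the partners of GLRX5 in building iron-sulfur clusters, of 14 tested, NFU1 was higher (log2 fold change 0.25, adjusted p = 0.00178), FDXR was lower (-0.16, adjusted p = 0.0105) and 12 did not pass, with a median log2 fold change of -0.05. FDX2 was not tested.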

How the data were processed

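RNA of 3 control and 3 RSL3-treated U87MG samples had been sequenced as read pairs after poly(A) selection. Per the study's methods and the labels' processing notes, the authors trimmed reads with Trimmomatic 0.36 and Fastp, used HISAT2 for alignment (GRCh38.p4) and HTSeq 0.6.1p1 for counting on exons per gene, without regard to strand. The values the authors deposited are raw counts per Ensembl gene, without normalization. Their annotation release is not given in the sources used here. Coordinates, exon lengths and overlaps came from GENCODE 44 on GRCh38, which holds 56434 of the 65988 identifiers. Promoter sequences came from RefSeq on GRCh38.p14.

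The tests used edgeR 4.0.16 under R 4.3.3: filterByExpr with a minimum count of 10, TMM scaling, the quasi-likelihood F test and Benjamini-Hochberg adjustment over all genes tested. DESeq2 1.42.0 and surrogate variables from sva 3.50.0, both used in the study, served as alternatives, because the study's text gives neither the number of variables nor the genes behind them. On data simulated for this comparison over 15877 genes, edgeR recovered 81.0% of changes of 0.5 and 99.0% of changes of 1 on the log2 scale and called 0.0702% of unchanged genes. The simulation gave all genes the same dispersion (0.00171) and changed 200 of them. These rates need not hold for genes with a wider spread, such as TXNIP. The members, lists and tests were chosen with earlier results of these data known, and the motifs after the promoters had been read. All 10 members were named, all peroxiredoxins, and in the other lists up to 3 called genes per direction, ordered by p. ARRDC4, FTH1 and ME1 were named beside these, after their values were seen.

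Replicates of a group differed by more than sampling noise (chi-square per degree of freedom between 2.44 and 5.61), so none was counted as a duplicate.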

Additional observations from a re-analysis of the deposited data

How the results depend on the processing

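SRXN1, TXNRD1 and TXN were called higher under all 15 alternatives, with log2 fold changes of 0.90 to 0.99, 0.52 to 0.59 and 0.29 to 0.34. TXN2 kept its direction (-0.185 to -0.127) and lost its call in 3: DESeq2 with 2 surrogate variables gave -0.16 (-0.155, adjusted p = 0.085). The number of members called lower was 0 in that fit and 0 to 2 with 1 library left out. The same fit called 1159 genes higher and 1109 lower of all tested, against 2082 and 2041. With 1 library left out, TXN2 lay between -0.185 and -0.127, TXNRD2 between -0.059 and 0.046, TXNIP between -0.84 and -0.52, GLRX between -0.021 and 0.037 and GLRX2 between 0.13 and 0.31. TXNRD2 changed sign without control replicate 3 (0.002) and without RSL3 replicate 2 (0.046), and GLRX without control replicate 3 (-0.014), without RSL3 replicate 1 (-0.021), without RSL3 replicate 2 (-0.006) and with total counts as library sizes (-0.006). Neither gene was called in any of these. GLRX2 was called without the filter (0.198). DESeq2 without surrogate variables called 0 genes lower among alpha-arrestins and 0 lower among the supply genes. The cause was not tested. Deviations from the group mean correlated at 0.022, 0.027 and 0.074 between same-numbered libraries, and at -0.051 to 0.024 between the others. These values are small and cannot settle whether the numbers pair the samples. With the replicate block 4633 genes were called against 4123, peroxiredoxins called lower went from 1 to 3, and each of the 10 members kept its call, TXN2 with -0.15 (adjusted p = 0.0031). Without the 0.5 added to each count, the 6 ratios kept their direction. Scaling by DESeq2's size factors moved the median log2 fold change of all genes by 0.0014 and scaling by totals by -0.0083. TXNIP had 31 to 85 counts per library, the fewest of the members.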

Other observations

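Processed pseudogenes of the members took few counts. The 7 pseudogenes of TXN summed to 35 to 51 counts per library, at most 0.294% of the TXN count, the 3 of GLRX to at most 11 and the 3 of GLRX5 to at most 2. TXN2P1 held 48 to 66 counts, up to 2.97% of the TXN2 count.

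The genes whose log2 normalised counts followed those of a member most closely over the 6 libraries were listed. They came from 11463 genes with a mean of at least 100 normalised counts. For TXNRD1 they were SQSTM1, HSPA5 and DNAJB11 (Pearson's r = 0.9996, 0.9992 and 0.9991), with log2 fold changes of 0.55, 0.33 and 0.33. For SRXN1 they were EPS8, PCSK5 and PAX8-AS1 (r = 0.9996, 0.9996 and 0.9994), with log2 fold changes of 0.33 (0.325), 1.20 and 0.93. For TXNIP they were LMNA, CXorf38 and C3orf18 (r = 0.994, 0.9935 and 0.9934), whose own log2 fold changes were small, at -0.04, -0.11 and -0.17. All 6 points share the difference between the groups, so these values describe the libraries and nothing more.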
